A study of Mus musculus with 4 samples.

Results

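The nuclear-encoded subunits of respiratory chain complexes II to V were examined in brown adipose tissue of mice with and without ATF4. Members were taken by gene symbol in the GENCODE vM21 annotation: Sdha, Sdhb, Sdhc, Sdhd, Cyc1, Cycs and every protein-coding gene whose symbol begins with Uqcr, Cox4 to Cox8 or Atp5. This gave 50 of the 52022 genes to which the deposited transcripts were assigned: 4 of complex II, 9 of complex III, cytochrome c, 18 of complex IV and 18 of complex V. Of these, 47 were among the 15643 genes tested. Cox7b2 and Cox8c, a pair of alternative complex IV subunits, had 0 counts in all 4 libraries. The third untested member was a readthrough annotated as Atp5o under an identifier of its own, with at most 9 counts in a library.

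Messenger RNA was sequenced in 4 libraries from male mice, all fed a diet of 60% fat for 12 weeks and all collected while feeding freely. The KO libraries (KO 1 and KO 2) came from mice lacking ATF4 in their thermogenic adipocytes, and the WT libraries (WT 1 and WT 2) from wild-type counterparts. The means of deletion and the age of the mice were not given in the sources used here. The labels do not state that each library is a separate animal, so a p-value here measures library spread alone, which may be technical. WT 2 and KO 1 have library names that begin with S1, and WT 1 and KO 2 names that begin with S2. The meaning of this prefix was not given in the sources used here.

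The respiratory chain passes electrons from fuel to oxygen across the inner mitochondrial membrane. Complex II (succinate dehydrogenase) feeds electrons from succinate to ubiquinone, complex III passes them to cytochrome c, and complex IV (cytochrome c oxidase) hands them to oxygen. Complexes III and IV pump protons as they do so, and complex V (ATP synthase) uses the returning protons to make ATP. In brown fat the uncoupling protein UCP1 lets protons return without ATP synthesis, so that fuel is burnt as heat, and the tissue is known for abundant respiratory complexes with little ATP synthase. Complex II is encoded wholly in the nucleus. Mitochondrial DNA encodes cytochrome b of complex III, the catalytic core of complex IV and part of the proton channel of complex V. Several complex IV subunits exist as a widely expressed form and a form typical of heart and skeletal muscle (Cox6a2, Cox7a1 and Cox8b). The proton-carrying c ring of complex V is built from 1 protein made by 3 genes, Atp5g1, Atp5g2 and Atp5g3.

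The region upstream of the gene start is shown for 4 members that the comparisons below turn on: Cox6a1, the widely expressed partner of Cox6a2; Cox7a1 and Cox8b, the muscle-type subunits that were abundant in every library; and Atp5g1. The sequences are RefSeq promoters on GRCm38.p6, written 5′ to 3′ on the gene's strand and ending at the base before the GENCODE gene start. Capitals mark matches in the printed stretch to a motif of NRF1 (GCGC, any 2 bases, GCGC) or SP1 (GGGCGG), searched on both strands. The window searched ran on to the RefSeq start, and the ETS match of Cox6a1 counted below lies in its part that is not printed.
Cox6a1 (chr5:115348982-115349208, minus strand): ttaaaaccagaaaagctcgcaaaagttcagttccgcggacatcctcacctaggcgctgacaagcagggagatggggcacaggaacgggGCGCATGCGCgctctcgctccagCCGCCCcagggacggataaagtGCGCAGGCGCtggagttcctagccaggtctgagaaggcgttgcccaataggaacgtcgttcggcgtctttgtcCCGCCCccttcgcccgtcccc
Cox7a1 (chr7:30183921-30184143, plus strand): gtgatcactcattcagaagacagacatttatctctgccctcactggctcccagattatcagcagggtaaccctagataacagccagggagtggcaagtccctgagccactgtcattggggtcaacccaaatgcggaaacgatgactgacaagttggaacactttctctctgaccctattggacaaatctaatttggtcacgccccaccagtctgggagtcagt
Cox8b (chr7:140900447-140900696, minus strand): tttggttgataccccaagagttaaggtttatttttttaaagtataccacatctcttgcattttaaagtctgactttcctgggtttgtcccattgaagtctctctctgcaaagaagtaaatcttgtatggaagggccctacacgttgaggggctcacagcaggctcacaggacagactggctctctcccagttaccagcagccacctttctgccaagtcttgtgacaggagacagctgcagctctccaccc
Atp5g1 (chr11:96075671-96075881, minus strand): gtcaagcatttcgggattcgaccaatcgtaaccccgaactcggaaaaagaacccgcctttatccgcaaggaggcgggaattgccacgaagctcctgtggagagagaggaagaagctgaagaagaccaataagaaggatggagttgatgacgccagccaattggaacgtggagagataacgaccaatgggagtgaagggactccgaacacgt

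Of 49 member symbols, 37 had a RefSeq promoter, and the 250 bases before the start were searched on both strands. The NRF1 motif lay in 7 of the 37 (18.9%, against 5.64% of 27025 genes), including Cox6a1, Sdha and Atp5g2. The ETS motif CCGGAAG lay in 9 (24.3%, against 7.83%), and the SP1 motif GGGCGG in 12 (32.4%, against 35.4%). The ERR motif AAGGTCA lay in 2 (5.41%, against 4.70%), and the ATF4 motif TGATGNAA in 0 (against 3.91%). The windows of Cox7a1, Cox8b and Atp5g1 held none of the 5 motifs. A match is a description of these letters and says nothing of binding.

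Libraries held 25985367 (KO 1) to 34813870 (WT 2) estimated counts, and the members took 2.82 to 2.99% of the counts assigned to genes. Mitochondrially encoded protein genes took 38.4% in KO 1 and 32.2 to 33.3% in the other 3 libraries. CPM are counts per 1e+06 of a library size adjusted by TMM, a scaling that evens out the bulk of genes between libraries. They therefore do not sum to 1e+06, and shares of counts and CPM need not run in parallel. The deposited TPM are scaled for transcript length. Levels of different genes are therefore compared in TPM, and one gene between libraries in CPM. Where 4 values stand together, their order is WT 1, WT 2, KO 1, KO 2. The level of Atf4 was 29.2, 107, 24.97 and 24.5 CPM, so the library labelled WT 1 stood close to the KO level. Of the brown adipocyte markers 8 of 8 were tested, and their summed level was 8246 to 9757 CPM over the libraries. Most of that sum was Ucp1, at 5563 to 7024 CPM. Between genotypes 0 of the 8 were called by edgeR. Both KO libraries were above both WT libraries for 1 (Kcnk3) and below them for 2 (Dio2 and Zic1), against 13.2% and 13.1% of all genes. With the prefix as a block, edgeR called 1 of the 8, Dio2, lower in KO (adjusted p = 0.0132), where 74 of 15643 genes were.

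Per length, Atp5b, the catalytic beta subunit of ATP synthase, was the most abundant member, with a mean of 7319 TPM over the 4 libraries (SD 575). Next came Cox8b at 4366 (SD 519), Cox4i1 at 2373 (SD 114) and Cox7a1 at 2219 (SD 187). Cox4i1 and Cox7a1 differed by less than the SD of Cox7a1. Among tested members the lowest were Atp5g1 at 23.0, Atp5s at 12.7, Cox6a2 at 12.0, Cox6b2 at 10.5 and Cox4i2 at 6.01. Cox6a2 owed its mean to KO, with 0.127, 0.0586, 26.5 and 21.5 TPM. Atp5s and Cox6b2 differed by less than their SDs of 4.28 and 4.19. Muscle-type forms thus stood near both ends of this order, with Cox8b and Cox7a1 at the top and Cox6a2 near the bottom.

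The comparison of KO with WT contrasts the genotype labels. The same libraries also differ in skeletal muscle markers, given below, so it does not isolate loss of ATF4 in thermogenic adipocytes. Of the 47 tested members, 1 was higher in KO (Cox6a2) and 0 were lower by edgeR's quasi-likelihood test at an adjusted p under 0.05. Over all tested genes, 0.767% were called higher and 0.0128% lower. At an unadjusted p under 0.05, 2 members were higher (Cox6a2 and Atp5g1) and 0 lower, against 2.52% and 1.5% of all genes. With DESeq2 both of these members were called higher at an adjusted p under 0.05, as were 0.924% of genes. The fitted log2 change was above 0 for 40 members and below 0 for 7, with a median of 0.14, where 50.3% of all genes were above 0 and their median was 0.00. KO and WT did not overlap in 5 members, all higher in KO, against 13.2% of all genes higher and 13.1% lower. The 5 were Cox6a2, Cox4i2, Atp5g1, Atp5s and Cox7a1, and their share of the 47 was no higher than that background.

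Cox6a2 (ENSMUSG00000030785, chromosome 7, 128205435 to 128206387, minus strand), the heart and skeletal muscle form of subunit 6A, rose in KO. It had 2 counts in WT 1 and 1 in WT 2 (0.0637 and 0.0272 CPM), against 377 in KO 1 and 306 in KO 2 (14.7 and 10.5 CPM). Both KO libraries stood far above both WT libraries, which were near 0. Summed per group, 683 counts stood against 3, a ratio of 283 once scaled for library size (exact 95% interval 96.5 to 1377, counting error only). The fitted log2 change was 8.03 (SE 0.44) with an adjusted p of 0.00166 in edgeR's quasi-likelihood test. On the log2(TPM + 1) scale, where the pseudocount shrinks the change of a gene near 0, it was 4.51 by limma. Its partner Cox6a1, at 725, 721, 946 and 651 CPM, did not separate the genotypes, and its log2 change of 0.14 (SE 0.26) did not pass. Cox6a2 made up 0.00680, 0.00292, 1.19 and 1.23% of the TPM of the Cox6a pair.

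Skeletal muscle markers moved with Cox6a2. All 18 markers of that list were higher in both KO libraries than in both WT libraries, and 17 passed the test. Their summed level was 41.7, 47.7, 3349 and 3036 CPM. The fast myosin gene Myh4 was at 0 counts in both WT libraries. Cardiac markers stayed at 0.109 to 0.430 CPM summed, with Myl7 at 0 counts throughout. Since these markers separate the same libraries as Cox6a2 and as Atp5g1, described next, their part in both differences was not tested, and in bulk tissue a change in the number of cells of a type cannot be told apart from a change in RNA per cell.

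Atp5g1 (ENSMUSG00000006057, chromosome 11, 96068852 to 96075670, minus strand) encodes the c-ring form whose low level is known to limit ATP synthase in brown fat. Its level was 5.32, 6.12, 18.3 and 14.3 CPM. Both KO libraries were above both WT libraries, with KO over WT by 1.57 on the log2 scale in S1 and by 1.42 in S2. The fitted log2 change of 1.51 (SE 0.21, unadjusted p = 0.000441) missed the threshold in edgeR's quasi-likelihood test, with an adjusted p of 0.0547. With the prefix as a block it passed (adjusted p = 0.000483 in edgeR), where 1.57% of all genes were called higher. Without WT 1 the change was 1.41 with an adjusted p of 0.0992, and without each other library it passed (adjusted p 0.0105 to 0.0452).

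The other c-ring genes did not pass the genotype test. Atp5g2 was at 105, 79.5, 99.0 and 93.9 CPM, with the KO values between the WT values. Atp5g3 was at 160, 152, 208 and 155 CPM, with KO 1 above the other 3. Their log2 changes were 0.06 (SE 0.20) and 0.22 (SE 0.21). Of the TPM of the 3 genes together, Atp5g1 made up 2.22, 2.80, 6.46 and 6.52%. Atp5g3 remained the largest contributor, at 58.7 to 64.3%, and Atp5g2 gave 29.8 to 38.2%. The ratio of Atp5g1 to Atp5g3 was higher in KO by 1.39 on the log2 scale, with no overlap. The exact permutation test of 2 against 2 libraries cannot go below 0.333 (two-sided), which it gave here, and so none of the 7 isoform ratios compared could reach 0.05.

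None of the 4 subunits of complex II passed the genotype test, and the genotypes overlapped in each. Sdhb, the iron-sulphur subunit, was at 912, 782, 888 and 905 CPM. Sdhd, a membrane anchor, was at 596, 523, 551 and 563 CPM. The KO values of both genes lay within the WT range. Sdha, the flavoprotein that oxidises succinate, was at 2288, 1665, 1383 and 2425 CPM, and the other anchor Sdhc at 476, 368, 368 and 474 CPM. For these 2 genes the libraries paired by prefix, with WT 1 and KO 2 high and WT 2 and KO 1 low. Log2 changes in KO over the complex ran from -0.05 to 0.08, with SEs of 0.21 to 0.36.

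Complex III held both patterns. Uqcrq, Uqcrh, Uqcr10 and Uqcr11 encode small subunits around the catalytic core. Uqcrq was at 392, 388, 577 and 352 CPM. Uqcrh was at 481, 494, 643 and 452 CPM. Uqcr10 was at 276, 253, 349 and 240 CPM, and Uqcr11 at 315, 318, 430 and 280 CPM. In each of these 4 genes KO 1 was the highest library and KO 2 the lowest, so the KO libraries lay on both sides of WT. The core proteins went another way, with Uqcrc2 at 1212, 923, 755 and 1241 CPM and Uqcrc1 at 814, 670, 650 and 805 CPM. KO 1 was the lowest library for both, and the S2 libraries were above the S1 libraries. None of the 6 passed the genotype test, with log2 changes from -0.10 to 0.25. Cyc1, Uqcrb and Uqcrfs1 had changes of 0.04 to 0.06. Cycs, the mobile electron carrier, was at 441, 407, 368 and 423 CPM, with overlapping groups and a log2 change of -0.10 (SE 0.20).

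In complex IV, all 16 tested members had a fitted log2 change above 0, with a median of 0.15, but apart from Cox6a2 none passed, and without KO 1 only 4 were above 0, with a median of -0.07. By limma on TPM 15 of the 16 were above 0. Cox7a1 (ENSMUSG00000074218, chromosome 7, 30184144 to 30186078, plus strand) was at 433, 391, 562 and 433 CPM. WT 1 and KO 2 were level, and KO 1 stood above the rest. Its partner Cox7a2 was at 336, 351, 472 and 326 CPM, with KO 1 again the highest and KO 2 the lowest. Cox7a1 provided 68.2, 64.9, 65.8 and 68.5% of the pair's TPM. The balance of the pair overlapped between genotypes (difference 0.04 on the log2 scale).

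Cox8b (ENSMUSG00000025488, chromosome 7, 140898945 to 140900446, minus strand), the muscle-type form of the smallest subunit, was at 725, 603, 947 and 680 CPM. Cox8a was at 512, 476, 649 and 440 CPM. KO 1 was the highest library for both forms. Their log2 changes were 0.29 (SE 0.26) and 0.14 (SE 0.26). Cox8b made up 75.5, 73.4, 76.1 and 77.1% of the pair's TPM. The KO ratios lay above the WT ratios by 0.16 on the log2 scale, with an exact permutation p of 0.333, the smallest 2 against 2 libraries allow. Unlike Cox6a2, the muscle-type forms Cox7a1 and Cox8b were thus the larger contributor in every library of both genotypes.

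Cox4i2, the form known from lung, was at 2.68, 3.05, 4.61 and 3.08 CPM, beside 1329, 1173, 1483 and 1232 CPM for Cox4i1. Both KO libraries were above both WT libraries for Cox4i2, KO 2 only barely, and the log2 change of 0.42 (SE 0.31) did not pass. Cox6b2, known as the testis form, was at 2.17, 3.48, 5.51 and 2.30 CPM, beside 668, 626, 800 and 618 CPM for Cox6b1. Both minor forms stayed under 1% of their pair. Cox5b, which lies on the matrix side of the complex, was at 494, 493, 708 and 458 CPM, and Cox7b at 411, 367, 461 and 387 CPM. KO 1 was the highest library for all 4 of Cox4i1, Cox6b1, Cox5b and Cox7b. Cox5a, Cox6c, Cox7a2l and Cox7c had changes of 0.11 to 0.15, and KO 1 was the highest library for each.

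**Figure D1:**
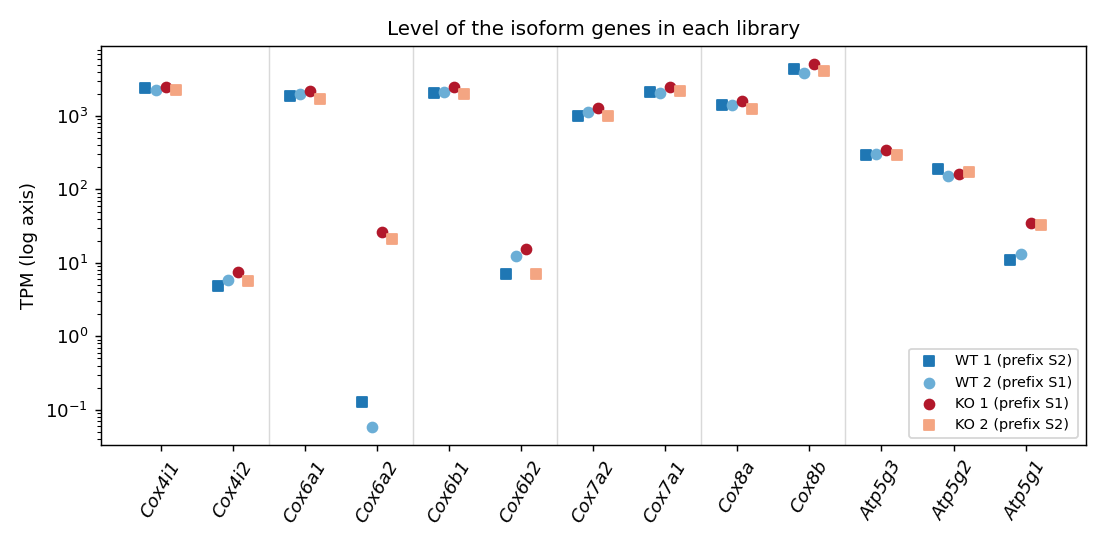
TPM of the isoform genes of complexes IV and V in each of the 4 libraries, on a log axis; squares are prefix S2, circles prefix S1, blue WT and red or orange KO. Cox6a2 lies near 0.1 TPM or lower in WT and above 20 TPM in KO, Atp5g1 is separated by genotype, and the other isoform genes lie close together or follow the prefix.

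No other complex V subunit reached the genotype threshold either. Atp5b was at 6555, 5569, 5447 and 6694 CPM, and Atp5a1, the alpha subunit beside it in the catalytic head, at 1785, 1359, 1283 and 1793 CPM. The S2 libraries were high and the S1 libraries low for both, and the log2 changes in KO were 0.00 (SE 0.29) and -0.03 (SE 0.29). Atp5mpl, a small membrane subunit, was at 107, 125, 183 and 106 CPM, with KO 1 the highest and KO 2 the lowest. Atp5s, which encodes a coupling factor, was at 9.14, 8.63, 10.7 and 10.7 CPM. Its groups did not overlap, yet the log2 change of 0.27 (SE 0.17) gave an unadjusted p of 0.171 in edgeR. The remaining 10 genes of the complex had changes of 0.01 to 0.20, and KO 1 was the highest library for 8 of them. Over the 45 tested members other than Cox6a2 and Atp5g1, log2 changes ran from -0.10 to 0.46 and SEs from 0.17 to 0.49, so that small changes were not detectable with these libraries.

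The small median excess in KO rested on KO 1. KO 1 was the highest library for 33 of the 47 tested members (70.2%), against 34.3% of all tested genes. Between the S1 libraries the KO minus WT difference was above 0 for 40 members, with a median of 0.38 on the log2 CPM scale. Between the S2 libraries it was above 0 for 12, with a median of -0.08. Over all tested genes these medians were -0.01 and -0.00. The median log2 change of the members in KO was -0.02 without KO 1, and 0.33 without KO 2. Markers of other cell types also set KO 1 apart, with endothelial markers at 620, 899, 1149 and 691 CPM summed and macrophage markers at 315, 214, 82.3 and 246. The 5 endothelial markers were all highest in KO 1, and the 6 macrophage markers all lowest. White adipocyte markers were at 390, 290, 87.6 and 163 CPM summed, with 3 of 6 lowest in KO 1. Unlike the 2 lists before it, this list also divided by genotype in its sum, which was lower in KO without overlap. The same held for 4 of its 6 genes singly, and 0 were higher in KO without overlap, against 13.1% and 13.2% of all genes. Between genotypes edgeR called 0 of the 6, and DESeq2 called 2 lower in KO (Lep and Nnat), where 21 of 20445 genes were. With the prefix as a block edgeR called 4 lower (Lep, Nnat, Mest and Slc7a10), where 74 of 15643 genes were. General adipocyte markers summed to 8532, 8461, 8945 and 7675 CPM, where Fabp4 was highest in KO 1 and Plin1, Pparg and Lipe lowest. Of the 8 brown adipocyte markers, 3 were highest in KO 1, Ucp1 among them, and 2 lowest, Dio2 and Ppara. Their part in the KO 1 pattern was not tested. By complex, the S1 and S2 medians were 0.04 and -0.01 in complex II, 0.21 and -0.09 in complex III, 0.44 and -0.10 in complex IV, and 0.38 and -0.07 in complex V.

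**Figure D2:**
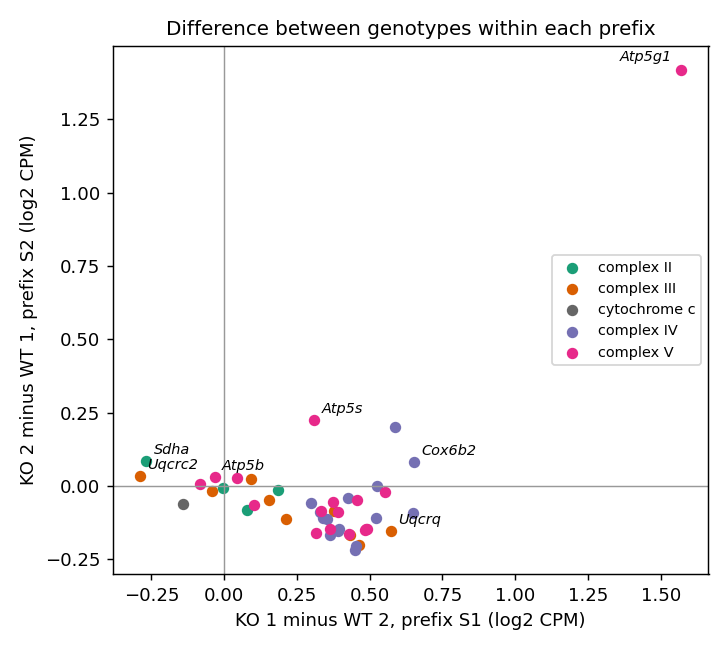
Difference between KO and WT in log2 CPM within prefix S1 (horizontal axis) and within prefix S2 (vertical axis), 1 point per tested member coloured by complex; Cox6a2, at 7.32 and 6.36, lies beyond the axes and is not drawn. Atp5g1 stands alone at upper right, and most members lie right of 0 in S1 and just under 0 in S2.

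The comparison of prefix S2 with S1 drew another line through the complexes. By edgeR's quasi-likelihood test, 0 members differed at an adjusted p under 0.05, and so did only 1 gene of all (0.00639%, lower in S2). At an unadjusted p under 0.05, 5 members were higher in S2 (Sdha, Atp5a1, Uqcrc2, Sdhc and Uqcrc1) and 2 lower (Cox6b2 and Atp5mpl), against 8.29% and 7.16% of all genes. The prefixes did not overlap in 13 members higher and 6 lower, against 27.3% and 25.9% of all genes. Of the 47 differences, 15 were above 0, with a median of -0.15, against 48.4% of all genes and a median of -0.01. With DESeq2, Sdha, Uqcrc2 and Atp5a1 were called higher in S2 (adjusted p = 0.00483, 0.0227 and 0.0227), where 2.24% of all genes were.

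In counts, Sdha had the largest fitted excess in S2 (ENSMUSG00000021577, chromosome 13, 74322254 to 74350280, minus strand), with a log2 difference of 0.63 (SE 0.14, adjusted p = 0.277 in edgeR). Uqcrc2 followed at 0.55 (SE 0.14), then Atp5a1 at 0.44 (SE 0.11), Sdhc at 0.37 (SE 0.11), Uqcrc1 at 0.29 (SE 0.11) and Atp5b at 0.27 (SE 0.11). On the log2(TPM + 1) scale with limma the order differed, with Uqcrc2 at 0.71, Sdhc at 0.60 and Sdha at 0.37, and Atp5b was at -0.16. All 4 complex II genes were higher in both S2 libraries than in both S1 libraries, and their 4 fitted differences were above 0 in all 12 alternatives. All 16 tested complex IV genes had a difference below 0, with a median of -0.21, but 11 were above 0 without KO 1 (median 0.04) and 7 with an offset for transcript length (median -0.02). The lowest was Cox6b2 at -1.01 (SE 0.30), and Atp5mpl of complex V was at -0.53 (SE 0.20). Complexes III and V were mixed, with 4 of 9 and 6 of 17 members above 0.

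The division followed transcript length as well as complex. Over the 47 members, the S2 minus S1 difference and the log2 of the transcript length, weighted by counts, had Pearson's r = 0.77 and Spearman's rho = 0.67. This is a correlation across genes that share 4 libraries and is given as a description. Over the other 15596 tested genes r was 0.09 and rho 0.13. Of 31 members with transcripts of up to 1000 bases, 1 was higher in S2 and 30 lower (median -0.24). Of 16 longer ones, 14 were higher and 2 lower (median 0.18). Among other genes of the same lengths, 30.2% of the shorter ones were higher in S2 (median -0.19), and 47.2% of those from 1000 to 3000 bases (median -0.02). The KO minus WT change of the members also ran with length, at rho = -0.62 and r = -0.10 (-0.30 without Cox6a2). Over the other genes rho was -0.16 and r -0.05. Its median was 0.17 for the shorter and 0.01 for the longer members, against 0.09 and 0.02 for other genes of those lengths. KO 1 lay above the mean of the 4 libraries by a median of 0.33 for the shorter members, and by 0.21 for other genes of that length. The 4 median deviations of the shorter members were -0.05, -0.11, 0.33 and -0.17, so WT 2, also of S1, lay between the S2 libraries. Those of the longer members were 0.11, -0.14, -0.06 and 0.12, with both S1 libraries below both S2 libraries. Without KO 1, 34 of the 47 prefix differences were above 0.

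With an offset for transcript length added to the fit, an alternative chosen after seeing the data, 11 of the shorter members were higher in S2 and 20 lower (median -0.02). Of the longer ones, 14 of 16 were still higher, with a median of 0.26, and Sdha had a difference of 0.60. The median change of all members in KO was then 0.04 in place of 0.14, and on the TPM scale with limma it was 0.02, with 31 of 47 above 0. All 4 complex II genes were over 1000 bases and 15 of 16 complex IV genes were shorter, but complexes III and V held both lengths. In complex III all 4 longer genes were higher in S2 and all 5 shorter ones lower, and in complex V 5 of 6 longer genes were higher and 10 of 11 shorter ones lower. The split by length was thus present within both of these complexes.

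**Figure D3:**
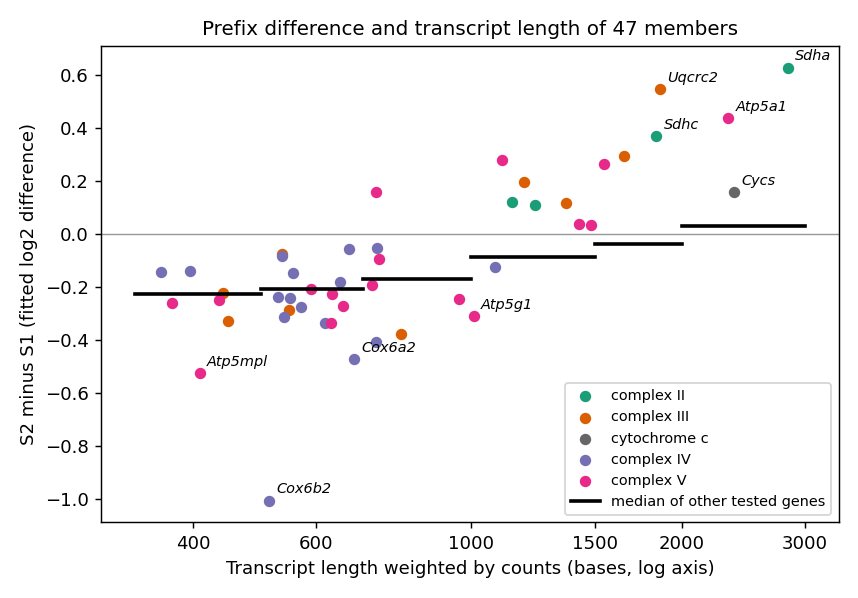
Fitted log2 difference between prefixes S2 and S1 against the transcript length weighted by counts (log axis), 1 point per tested member coloured by complex; black bars are the medians of other tested genes in the same length range. Members of up to 1000 bases lie below 0 with 1 exception, and those over 1500 bases all lie above 0.

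The transcripts to which reads were assigned also differed between libraries. For 14 members with a main coding transcript of at least 1000 bases and at least 1 more transcript, the share of the gene's estimated counts in the main one was examined. For Sdha it was 99.2, 97.0, 87.7 and 99.3%. For Atp5b it was 79.3, 72.3, 54.6 and 80.4%, and for Atp5f1 64.0, 59.8, 46.8 and 64.1%. KO 1 was the lowest library for these 3 genes and for 6 of the 14, with WT 2 next in these 3. Cyc1 went the opposite way, at 58.6, 61.6, 69.0 and 54.5%, and so did Sdhc (44.4, 45.4, 49.9 and 44.0%) and Cycs (69.0, 69.8, 71.9 and 71.3%), each highest in KO 1. The median over the 14 genes was 76.0, 71.1, 71.8 and 81.1%, lower in the S1 libraries, but single genes differed. Sdha, Atp5b and Atp5f1 were lower in both S1 libraries. So were Atp5a1, Atp5s, Cox7a2l, Cox7b, Sdhb and Uqcrc1, some of them by little (Sdhb at 99.3, 99.0, 99.1 and 99.2%). Cyc1 and Sdhc were higher in both. Also higher in both were Atp5c1 (37.3, 46.4, 43.9 and 38.2%) and Uqcrc2 (95.3, 99.7, 99.3 and 93.3%).

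In Sdha a retained-intron transcript of 858 bases (ENSMUST00000161434) took 365, 1655, 4240 and 325 counts. In Atp5b a transcript of 478 bases whose end lies 118 bases from that of the main one (ENSMUST00000126751) took 21542, 31035, 36940 and 19107. Both were highest in KO 1 and next in WT 2, although KO 1 had the fewest counts in all. This bears on the unit used. In CPM Atp5b was lower in S1, whereas in TPM, which divides by transcript length, it was at 6846, 7310, 8131 and 6988, higher in both S1 libraries than in both S2 libraries. The part of these transcript shares in the prefix difference and in the KO 1 pattern was not tested.

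**Figure D4:**
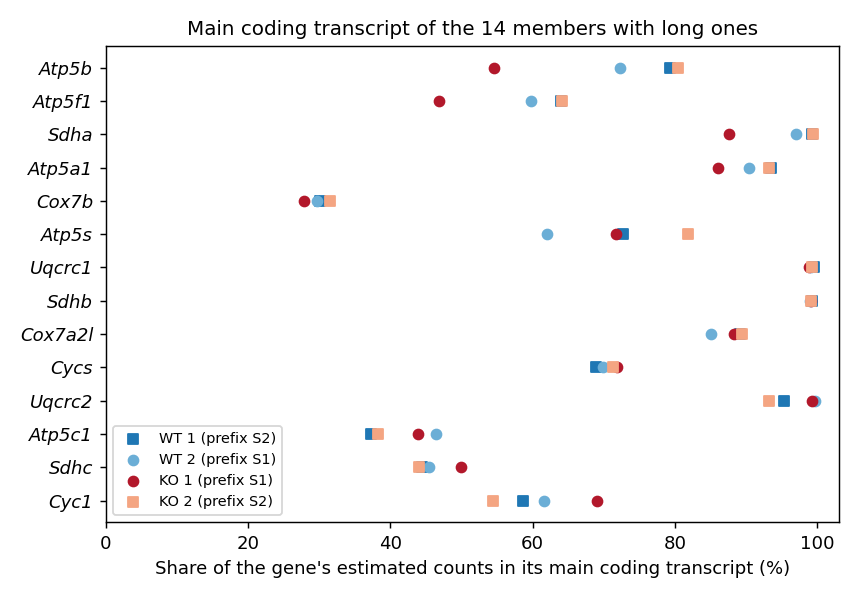
Percent of a gene's estimated counts assigned to its main coding transcript in each library, for the 14 members with a main transcript of at least 1000 bases and another transcript; squares are prefix S2, circles prefix S1. Atp5b, Atp5f1, Sdha and Atp5a1 are lowest in KO 1, and Cyc1, Sdhc and Cycs are highest there.

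Summed over their genes, the complexes overlapped between genotypes. Complex II was at 4273, 3338, 3191 and 4367 CPM. Complex IV was at 7216, 6666, 8975 and 6652 CPM, a mean of 6941 ± 389 CPM for WT and 7813 ± 1643 for KO (SD, n = 2 libraries). Complex II was high in the S2 libraries, whereas complex IV was high in KO 1 only. Complex III was at 4975 to 5726 CPM and complex V at 11068 to 12757 CPM. The KO minus WT differences on the log2 scale were -0.02, 0.05, 0.16 and 0.05 for complexes II to V. The S2 minus S1 difference was 0.40 for complex II, without overlap (exact permutation p = 0.333, the smallest possible), and -0.16 for complex IV. In CPM, complex III, complex V and cytochrome c were likewise higher in both S2 libraries, by 0.11, 0.14 and 0.16 (exact permutation p = 0.333 for each). Without Atp5b the difference of complex V was 0.01. The direction depended on the unit. In TPM complex V was at 17594.7, 18220.5, 20194.4 and 17291.9, higher in both S1 libraries, and complex III and cytochrome c overlapped between prefixes. Complex II was higher in both S2 libraries in TPM too (3294, 2876, 2488 and 3405). The mitochondrially encoded complex IV genes (mt-Co1 to mt-Co3) were at 168894, 152065, 193905 and 158667 CPM, also highest in KO 1.

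Other genes of the pathway gave 0 calls between genotypes by edgeR's quasi-likelihood test, and 0 by DESeq2. This held for 13 mitochondrially encoded genes, 36 tested assembly factors of complexes II to V, 7 core subunits of complex I and 13 regulators of respiratory genes. Their median log2 changes in KO were 0.13, 0.05, 0.04 and 0.03. At an unadjusted p under 0.05, 1 of these genes was reached, mt-Nd3, a complex I subunit, at 1495, 1371, 2326 and 2314 CPM. Its KO libraries were level with each other and above both WT libraries. Ppargc1a, a coactivator that drives respiratory genes, was at 27.9, 22.1, 24.3 and 41.6 CPM, with KO 2 above the rest. Between prefixes 0 genes of these lists were called by edgeR, with 2, 8, 1 and 3 of them at an unadjusted p under 0.05, and DESeq2 called Coa5, an assembly factor of complex IV, and Ndufs1. Ndufs1, a core subunit of complex I, was at 736, 485, 355 and 717 CPM, higher in both S2 libraries (0.79, SE 0.18), and Perm1, an activator of respiratory genes in muscle, differed by 0.51 (SE 0.15). The copper chaperone Sco2 was lower in both S2 libraries, by -0.99 (SE 0.23). With genotype as a block edgeR called Sco2 lower (adjusted p = 0.0353), where 243 of 15643 genes were, and called no other gene of these lists.

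Some members share reads with near-identical copies elsewhere in the genome, so their values are uncertain. At an identity of at least 95% over at least 200 bases, 35 copy genes matched 15 members, and 6 copies held more than 100 counts over the 4 libraries. Cycs was the most exposed, since its copy Gm10053 on chromosome 19 held 9774, 11389, 7867 and 9464 counts. Gm10175 on chromosome 7, a copy of Atp5g2, held 2437, 3012, 2260 and 2256. With the counts of the copies added to those of the members, Cox6a2 was still the sole member called between genotypes.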

How the data were processed

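TRIzol RNA was made into stranded mRNA libraries, per the labels' protocols. Per the submitters' processing notes, kallisto 0.45.0 and mm10 were used. The transcript set, strand setting and trimming were not given in the sources used here. For each library the deposited file gives, per the file headers, an estimated count and a TPM value for 141450 transcripts. Between 85.7 and 87.0% of non-zero estimated counts were not whole (tolerance 0.001), because reads fitting several transcripts are split.

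Transcripts were matched to GENCODE vM21 genes (97.7%). The unmatched ones, with 0.992 to 1.04% of the counts, were left out. Sums of the estimated counts over a gene's transcripts were rounded, and deposited TPM values were summed likewise.

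edgeR 4.0.16 (R 4.3.3) fitted genotype, and separately prefix, with TMM scaling and the quasi-likelihood test on genes kept by filterByExpr (minimum count 10, total 15). Benjamini-Hochberg adjustment ran over 15643 genes, with a threshold of 0.05. Within-prefix differences are log2 CPM with a prior count of 2. Copies were sought with blastn 2.17.0. Alternatives included DESeq2 1.42.0, limma 3.58.1 on log2(TPM + 1), no filter, a block, and leaving out each library. The edgeR fits with and without a block, but not with the length offset, were tested on simulated data. The replicate numbers were not taken as a pairing in the main fit.

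The members, lists and comparisons were chosen with earlier results of these data known. Per-library values are given for isoform genes and, per complex, for up to 3 members with the smallest p in each fit. Cycs was added after its values were seen. So were the Cyc1, Sdhc, Cycs, Atp5f1, Atp5c1 and Uqcrc2 transcript shares, and the within-prefix differences of Atp5e, Atp5l and Cox6c. The further genes with lower transcript shares in S1 were also named after their values were seen.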

Additional observations from a re-analysis of the deposited data

Results flagged for a closer look

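In several results KO stood above WT in prefix S1 and below WT in prefix S2, by at least 0.1 on the log2 scale each way. With 1 library of each genotype per prefix, these differences between the prefixes were not tested. For the summed level of complex IV the difference was 0.43 in S1 and -0.12 in S2, 0.55 apart. Among complex III subunits the gap between the prefixes was 0.73 for Uqcrq, 0.66 for Uqcr10 and 0.60 for Uqcr11. Among complex IV subunits it was 0.67 for Cox8a, 0.63 for Cox5b, 0.55 for Cox6a1, 0.47 for Cox6b1 and 0.45 for Cox4i1. In complex V it was 0.48 for Atp5g2, at 0.32 in S1 and -0.16 in S2. KO 1 was the highest library for each of these apart from Atp5g2, for which it was WT 1. Single genes were searched only among the isoform genes and the members with the smallest p per complex. Members outside that search also met the rule, so the genes listed are not all of them. Examples are Atp5e (0.49 in S1 and -0.15 in S2), Atp5l (0.49 and -0.15) and Cox6c (0.45 and -0.20).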

How the results depend on the processing

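Cox6a2 passed the genotype test in all 14 alternatives, at 4.51 with limma on log2(TPM + 1) and 7.53 to 8.65 in the others. In that comparison 320 genes were called with the prefix as a block, 210 with DESeq2, 457 without the filter and 237 with a transcript length offset and the prefix block, against 122. Members called numbered 2 in place of 1, Atp5g1 being added, under DESeq2, no filter, limma on TPM, the length offset (with and without the prefix block), the replicate block and the prefix block. Deviations from the genotype mean correlated by 0.38 within a prefix and by -0.38 within a replicate number. With 2 libraries a group these are the same value with opposite signs, so they cannot settle whether the numbers pair the libraries. With the replicate block 164 genes were called, and the crossed pairing is the prefix block. Between prefixes 521 genes were called with DESeq2, 823 without the filter and 491 with genotype as a block, against 1. Members called numbered 3 with DESeq2, 2 without the filter (Sdha, Uqcrc2) and 0 with genotype as a block, against 0. Leaving out 1 library gave 158 (without KO 1) to 235 (without WT 2) genes between genotypes, 1 (without WT 1) to 2 members, 0 to 1 genes between prefixes, and a median prefix difference of the members from -0.37 (without WT 2) to 0.061 (without KO 1). Some log2 values that passed no test changed sign, and the cause was not tested. For KO minus WT, limma on TPM gave -0.026 for Sdhb and -0.034 for Atp5g2, which the length offset put at -0.0072, and Atp5b was at -0.00077 with DESeq2, -0.00102 without mitochondrially encoded genes, -0.00084 with the replicate block, -0.00086 with the prefix block and -0.020 and -0.029 with the length offset without and with that block. For S2 minus S1 the offset gave Uqcr10 0.013, Cox4i1 0.12, Cox6b1 0.058, Cox7a1 0.12, Cox7b 0.13 and Cox8b 0.13, and limma gave Atp5b -0.16. The prefix difference of the Cox6b2 to Cox6b1 ratio was -0.84 from counts and -0.84 with copies summed, against -0.79, and that of Atp5g2 to Atp5g3 was 0.20 with copies summed, against 0.34. Without 1 library, KO minus WT ran for Sdha -0.52 to 0.30, Sdhb -0.027 to 0.20, Sdhc -0.21 to 0.19, Sdhd -0.099 to 0.093, Uqcr10 -0.14 to 0.39, Uqcr11 -0.17 to 0.43, Uqcrc1 -0.20 to 0.12, Uqcrc2 -0.51 to 0.22, Uqcrh -0.10 to 0.39, Uqcrq -0.14 to 0.56, Cox4i1 -0.018 to 0.24, Cox5b -0.11 to 0.51, Cox6a1 -0.15 to 0.38, Cox6b1 -0.063 to 0.30, Cox6b2 -0.30 to 0.95, Cox7a2 -0.072 to 0.45, Cox7b -0.0049 to 0.24, Cox8a -0.16 to 0.38, Atp5a1 -0.30 to 0.19, Atp5b -0.16 to 0.15, Atp5g2 -0.13 to 0.28, Atp5g3 -0.0046 to 0.41 and Atp5mpl -0.13 to 0.65. S2 minus S1 ran for Uqcr10 -0.43 to 0.034, Cox4i1 -0.21 to 0.13, Cox6a2 -6.75 to 7.41, Cox6b1 -0.31 to 0.046, Cox7a1 -0.37 to 0.15, Cox7b -0.21 to 0.13, Cox8a -0.44 to 0.0082, Cox8b -0.43 to 0.23, Atp5g1 -1.19 to 0.69, Atp5g3 -0.40 to 0.061 and Atp5s -0.11 to 0.21. With 2 libraries a group and SEs of 0.17 or more, small differences could not be detected.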
